A study of Arabidopsis thaliana with 12 samples.

Results

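AT3G44450, HYH and IAA29 are light-signalling genes of Arabidopsis thaliana that were followed through a day on 12 Affymetrix arrays. They are 3 of the 7566 tested genes that a probe set names alone. AT3G44450 was read from probe set 252661_at, HYH (AT3G17609) from 258349_at and IAA29 (AT4G32280) from 253423_at, and the platform annotation pairs 1 probe set with each. The genes were picked from measured differences of these same arrays. AT3G44450 was picked on ZT6 against ZT0, HYH on ZT0 against ZT18, and IAA29 on ZT6 against ZT0 and ZT18 against ZT12. Those 4 differences are given as descriptions, with no test. So are others that rest on the same arrays and that the choice largely fixed.

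All 12 arrays carried total RNA from CCA1-ox seedlings in the Columbia background, in which CCA1, a MYB factor at the core of the plant clock, is overexpressed. The aerial part was taken from plants aged 10 days, grown on agar with Murashige and Skoog salts and 1% sucrose, and each day had 16 h of light followed by 8 h of darkness. There were 3 arrays at each of ZT0, ZT6, ZT12 and ZT18, where zeitgeber time (ZT) counts the hours after lights on. ZT0 marked the change from dark to light, ZT6 and ZT12 lay in the light and ZT18 in the dark. Wild-type seedlings were not analysed here, so every value below describes the overexpressing line and none measures the effect of CCA1. The labels used here do not give the promoter of the transgene, whether several lines were pooled, or whether replicates were grown separately, so p-values measure only the spread between these arrays.

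The measurements were log2 expression values, on which a difference of 1 is a 2-fold change. Values under 4 were taken as not detected. No probe set is named for CCA1, so its overexpression was not checked here. Of 11 green-tissue markers, RCA (Rubisco activase) had a named probe set and lay between 13.55 and 14.44. Of 9 root markers 3 had one: EXPA7 and EXPA18 were at the floor of 2.06 on every array, while PYK10 lay between 12.55 and 13.44. The times come from the titles. A separate harvest-time characteristic gives a different time on 9 of the 12 arrays, and under it the pooled SD within a time was 2.92 for AT3G44450, 1.59 for HYH and 2.08 for IAA29. Under the titles these SDs were 0.407, 0.474 and 0.324. The genes were picked for differences between the title times, so their SDs cannot decide between the labels. The ZT18 arrays also stood apart in a sign of RNA quality, the excess of 3' over 5' signal averaged over control probe sets for GAPDH, ubiquitin and actin, called the 3' minus 5' signal. It was 4.68 to 5.28 at ZT18 and 4.12 to 4.43 on the other 9 arrays.

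Cryptochromes are the blue-light receptors that, with the phytochromes, switch seedlings from elongation in the dark to leaf growth in the light. AT3G44450 encodes an inhibitor of cryptochromes, a small protein that binds the light-activated receptor and holds it in its inactive form. HYH is a bZIP transcription factor and the close homologue of HY5, and both promote light responses while the COP1 ubiquitin ligase removes them in the dark. IAA29 is a member of the Aux/IAA family of auxin-response repressors, and its gene is a known target of the phytochrome-interacting factors (PIFs), which promote elongation in darkness and shade.

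AT3G44450 was high on every array from the light and low on every array from ZT18 and ZT0. At ZT6 its values were 8.99, 8.95 and 9.30 (mean 9.08 ± 0.19, SD, n = 3), and at ZT12 they were 8.43, 8.38 and 7.99 (8.27 ± 0.24). At ZT18 the values were 5.01, 4.84 and 3.77 (4.54 ± 0.67), and at ZT0 they were 2.89, 3.43 and 3.53 (3.28 ± 0.34). All 3 ZT0 arrays and 1 ZT18 array therefore lay under the detection limit. The mean at ZT6 was at least 33.8-fold above ZT0, counting each ZT0 array at the limit of 4. In that comparison 56.0% of all tested probe sets passed, and on 65.8% the arrays of the 2 times did not overlap. Both percentages stand beside the difference that picked the gene, and nothing is read from them.

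**Figure D1:**
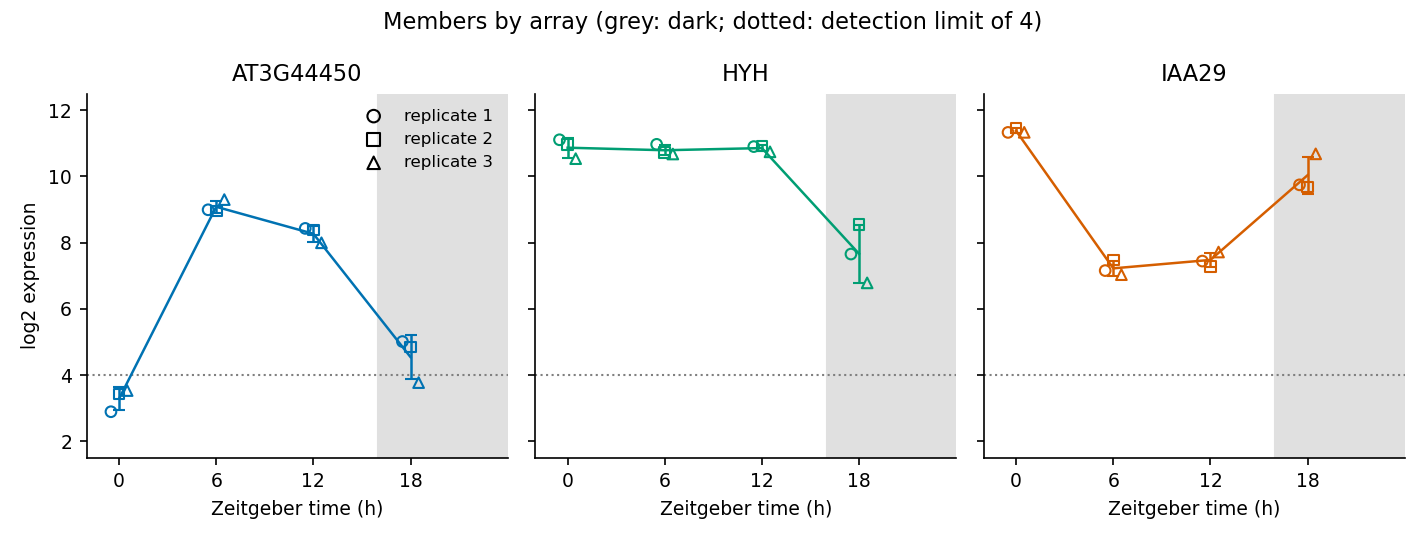
Log2 expression (y axis) of AT3G44450, HYH and IAA29 against zeitgeber time in hours (x axis). Open symbols are single arrays by replicate number, lines join the means with SD bars (n = 3), grey marks the dark and the dotted line is the detection limit of 4. AT3G44450 is high at ZT6 and ZT12, HYH is low at ZT18 alone among the 4 times, and IAA29 is high at ZT18 and ZT0.

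The order of the AT3G44450 means was ZT6, ZT12, ZT18 and ZT0. From ZT12 to ZT18 the transcript fell by 3.72 on the log2 scale (SE 0.29, limma adjusted p = 7.71e-07), a 13.2-fold fall. The ZT12 and ZT18 arrays were not part of the difference that picked the gene. The SE, however, pools the spread of all arrays, and the gene was chosen with earlier results of these data known. This p-value is therefore not fully independent of the choice. Between ZT12 and ZT18, 24.4% of all tested probe sets were called as lower, 50.5% were called in either direction and 56.8% had no overlap between the arrays of both times. ZT0 lay below ZT18 by a difference of -1.26 (SE 0.29, limma adjusted p = 0.00496), at least 1.46-fold. The ZT0 arrays had served to pick the gene on a low ZT0, which favours this direction, and all of them lay under the detection limit. That difference is therefore not independent of the choice. Between ZT18 and ZT0, 37.0% of all probe sets were called, 18.5% of all as lower at ZT0, and 43.7% had no overlap. The arrays of AT3G44450 did not overlap there either. Its difference did not pass with the 3' minus 5' signal as a covariate (difference -1.03, adjusted p = 0.205). The ZT12 arrays all lay under the ZT6 arrays, yet the difference of -0.81 (SE 0.29, 95% interval -1.44 to -0.19) did not pass (limma adjusted p = 0.150, with 2.12% of probe sets called and 32.8% without overlap). It passed in a fit to those 6 arrays alone (adjusted p = 0.0329). The ZT6 arrays had served to pick the gene on a high ZT6, which favours a fall to ZT12. Neither result is therefore independent of the choice. The 12 h pairs rest on the ZT0 or ZT6 arrays that picked the gene and are descriptions. ZT12 was at least 19.2-fold above ZT0, where 54.0% of probe sets were called and 61.0% had no overlap. The mean at ZT18 was 23.2-fold below that at ZT6, where 46.2% were called and 57.0% had no overlap.

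HYH kept a level near 10.8 at ZT0, ZT6 and ZT12 and was low at ZT18. The values were 11.10, 10.96 and 10.53 at ZT0 (10.86 ± 0.30), 10.97, 10.72 and 10.67 at ZT6 (10.79 ± 0.16), and 10.90, 10.92 and 10.74 at ZT12 (10.85 ± 0.10). The 9 arrays of these times overlapped throughout. At ZT18 the values were 7.65, 8.55 and 6.78 (7.66 ± 0.88), all below the other 9. ZT0 was thus 9.21-fold above ZT18, the difference on which the gene was picked.

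The mean of HYH at ZT18 was also 9.14-fold below ZT12 and 8.73-fold below ZT6, log2 differences of -3.19 and -3.13 (SE 0.32 each). Both rest on the ZT18 arrays that served to pick the gene and are descriptions. With the 3' minus 5' covariate these differences were -4.42 and -4.16. Levels at ZT0, ZT6 and ZT12 were not told apart. The ZT0 arrays had also served to pick the gene, so the comparisons with ZT0 are not independent of that choice. The difference was -0.08 for ZT6 against ZT0 (95% interval -0.77 to 0.61, limma adjusted p = 0.855), 0.07 for ZT12 against ZT6 (-0.63 to 0.76, adjusted p = 0.935) and -0.01 for ZT12 against ZT0 (-0.70 to 0.68, adjusted p = 0.979). These intervals are of equal width and reach a fall of 0.77, so small differences were not detectable. Their width rests on a spread pooled over all times with 3 arrays each. That spread includes ZT18, where the SD of HYH was 0.88.

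A low level at ZT18 alone set HYH beside 924 of 14016 probe sets (6.59%) whose ZT18 arrays all lay below the other 9. By the span of its means HYH ranked 34th of those 924 and 273rd of all 14016. These ranks come from the values that picked the gene and are a description. Its SD at ZT18 exceeded that of 98.8% of tested probe sets at that time (median SD 0.20), whereas at ZT12 its SD exceeded that of 30.6%.

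IAA29 ran opposite to AT3G44450. At ZT0 the values were 11.33, 11.46 and 11.33 (11.37 ± 0.08), at ZT6 they were 7.15, 7.48 and 7.03 (7.22 ± 0.23), and at ZT12 they were 7.44, 7.27 and 7.71 (7.48 ± 0.22). At ZT18 they were 9.74, 9.68 and 10.68 (10.03 ± 0.56). The ZT0 arrays were the highest, the ZT18 arrays lay between them and the 6 arrays from the light, and no array of these 3 sets overlapped another set. The mean at ZT0 was 17.8-fold above ZT6, and the mean at ZT18 was 5.89-fold above ZT12.

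Arrays of all 4 times took part in the choice of IAA29, so no comparison of it is independent of that choice. Between ZT18 and ZT0 the difference was 1.34 (SE 0.23, 2.53-fold, limma adjusted p = 0.000829), when 18.6% of probe sets were called as higher. That contrast was not itself used, but the arrays of both times were, so its p-value is not an independent test. With the 3' minus 5' covariate the difference did not pass (difference 1.00, adjusted p = 0.117). The differences between ZT12 and ZT0, -3.90, and between ZT18 and ZT6, 2.81, were largely fixed by the choice and are descriptions. ZT6 and ZT12 overlapped, and their difference of 0.25 (95% interval -0.24 to 0.75) did not pass (limma adjusted p = 0.574). In the order ZT0, ZT18, ZT12 and ZT6, the last neighbours were therefore the pair not told apart.

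**Figure D2:**
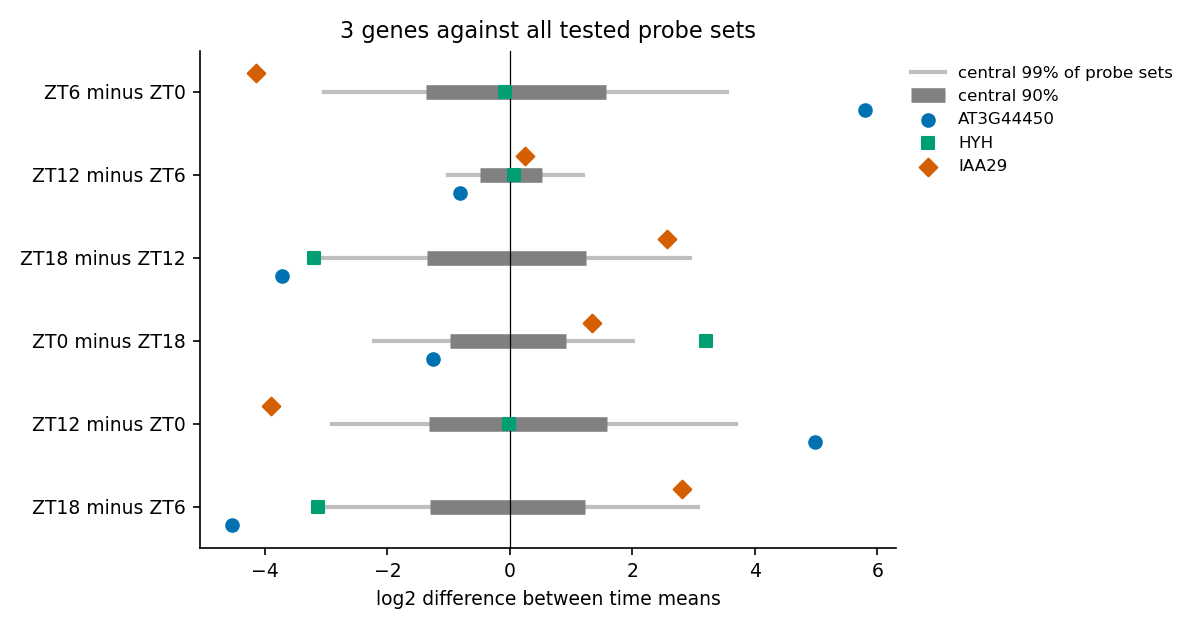
Log2 difference between time means (x axis) for each of the 6 comparisons (y axis). Coloured symbols are the 3 genes, thick bars hold the central 90% and thin lines the central 99% of 14016 tested probe sets. AT3G44450 and IAA29 lie on opposite sides of 0 in every comparison, and HYH leaves the central 90% in the 3 comparisons that include ZT18.

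Set side by side, the 3 genes moved differently around dawn. Between ZT18 and ZT0 the mean of AT3G44450 went from 4.54 to 3.28 and that of IAA29 from 10.03 to 11.37. Both means moved further from their levels in the light, but the ZT0 arrays of AT3G44450 were all under the detection limit. Neither difference passed with the 3' minus 5' covariate (limma adjusted p = 0.205 and 0.117). HYH went from 7.66 to 10.86 in the same interval and so lay near its ZT6 mean of 10.79 when the lights came on. Between ZT0 and ZT6 the mean of HYH moved by -0.08 and that of IAA29 by -4.15, whereas AT3G44450 was at least 33.8-fold higher at ZT6. The differences between genes were not tested, since all 3 were chosen from these values.

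AT3G44450 and IAA29 ran opposite to each other across the times, which their choice on ZT6 against ZT0 in opposite directions largely fixed. Over the 12 arrays Pearson's r was -0.99 and Spearman's rho -0.94, but the arrays fall into a light and a night set, which alone gives a large value. Within the 6 arrays of ZT6 and ZT12 r was -0.79, and within the 6 arrays of ZT18 and ZT0 it was -0.95. These values still mix different times. At ZT6, ZT12 and ZT18, replicates 2 and 3 lay on opposite sides of the time mean in AT3G44450 and IAA29. At ZT0 the deviations from the time mean were -0.39, 0.15 and 0.25 for AT3G44450. For IAA29 they were -0.05, 0.09 and -0.04, on the same side in replicates 1 and 2. For HYH the coefficients were smaller over all arrays but not within the night. Its r with AT3G44450 was 0.40 over all arrays, -0.23 within the light arrays and -0.68 within the night arrays (rho -0.83). With IAA29 its r was -0.34, -0.16 and 0.74 in the same order, the last with rho 0.60. The night values of HYH largely restate ZT0 against ZT18, the difference that picked it. Within ZT18 the signs were the other way. There HYH deviated from its time mean by -0.01, 0.89 and -0.88, AT3G44450 by 0.47, 0.30 and -0.77, and IAA29 by -0.29, -0.35 and 0.64. Within ZT0, HYH deviated by 0.24, 0.09 and -0.33, opposite to AT3G44450 in replicates 1 and 3. The coefficients are descriptions across arrays that share their time of harvest.

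**Figure D3:**
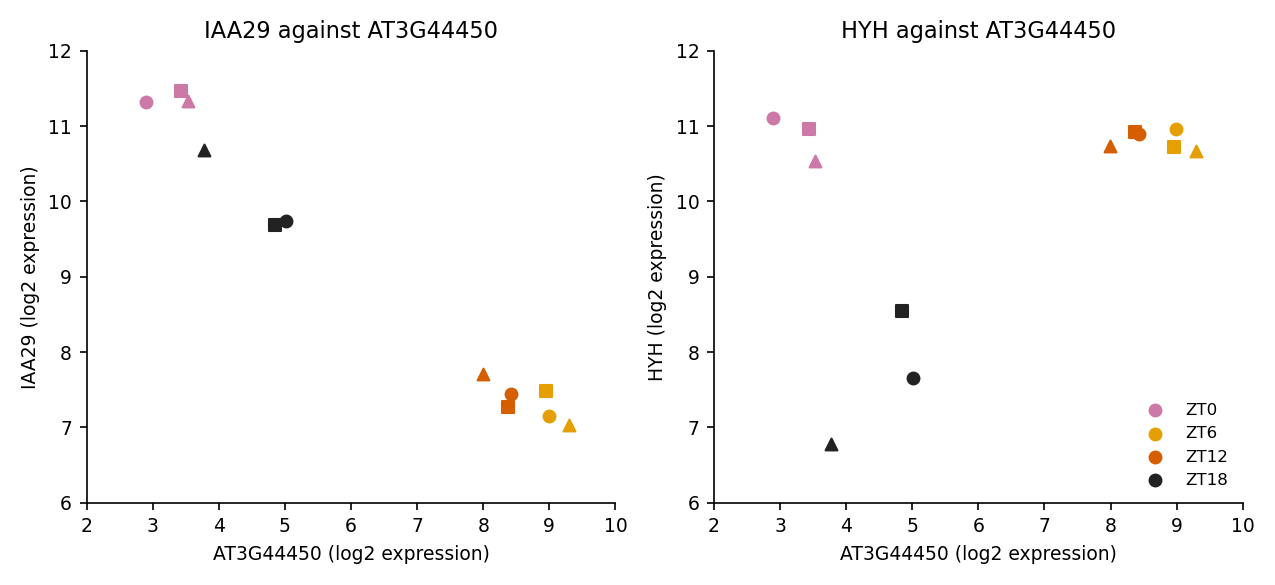
Log2 expression of IAA29 (left) and HYH (right) on the y axis against AT3G44450 on the x axis, 1 point per array. Colours give the time and circles, squares and triangles replicates 1, 2 and 3. The points of IAA29 fall along a descending line, while HYH is near 10.8 at 3 times and below 8.6 on the ZT18 arrays.

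Within ZT18 the arrays differed more than within the other times. Replicate 3 lay 0.77 below the time mean for AT3G44450, 0.88 below it for HYH and 0.64 above it for IAA29. Replicate 2, whose 3' minus 5' signal of 5.28 was the highest of the 12 arrays, had HYH 0.89 above the mean. For AT3G44450 and IAA29, replicate 3 lay nearer to the ZT0 values than replicates 1 and 2 did, and for HYH it lay furthest from them. The part of RNA quality in this spread was not tested. Leaving out any 1 of the 12 arrays kept the tested differences of the 3 genes on the same side of the threshold.

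Other genes of the same pathways came from 10 lists of light and auxin genes. Of 133 listed genes 18 had a probe set naming them alone and 11 could be tested, the 3 described above included. No photoreceptor (0 of 14), COP1, SPA or DET1 repressor (0 of 10), PIF (0 of 7), HY5-linked light-induced gene (0 of 9), or auxin receptor or ARF factor (0 of 16) had one. HY5 itself is therefore not analysed here. A further 7 genes, the Aux/IAA genes IAA20, IAA30, IAA31, IAA33 and IAA34 and the auxin-conjugating enzyme genes GH3.1 and GH3.9, stayed between 2.06 and 3.18 on all arrays, below the detection limit. That left 8 other genes. The lists were chosen with earlier results of these data known, so the p-values of these 8 genes are not independent tests.

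From ZT0 to ZT6, 1 of these 8 genes rose, 5 fell and 2 did not pass, with a median difference of -0.90 against -0.01 over all tested probe sets. In that comparison 27.6% of all probe sets were called as higher and 28.4% as lower. The gene that rose was AT3G52740, the other locus on the list of cryptochrome inhibitors, which neither annotation table gives a name. Its values were 6.14, 5.40 and 5.21 at ZT0 and 10.63, 10.20 and 9.88 at ZT6, a rise of 4.65 (SE 0.32, 25.1-fold, limma adjusted p = 1.90e-07). It was 10.59 ± 0.39 at ZT12 and 6.44 ± 0.59 at ZT18, a fall of 17.8-fold (limma adjusted p = 7.61e-07). Both cryptochrome-inhibitor loci were thus high on all 6 light arrays and low on all 6 night arrays, but AT3G44450 had been picked on ZT6 against ZT0. The share of all probe sets separated in this way is not given here. Between single times non-overlap was common, with 65.8% of probe sets for ZT6 against ZT0 and 56.8% for ZT18 against ZT12. From ZT18 to ZT0, AT3G52740 differed by -0.86 (95% interval -1.55 to -0.16) and did not pass (limma adjusted p = 0.0529), with overlapping arrays. That fit ignored the replicate numbers, although same-numbered arrays of these times deviated alike (correlations 0.18 to 0.32). With the replicate number as a block the difference passed (limma adjusted p = 0.000352). It also passed without ZT0 replicate 1 (adjusted p = 0.0239), ZT12 replicate 1 (adjusted p = 0.0474) or ZT18 replicate 3 (adjusted p = 0.0243).

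FHL, which with FHY1 carries phytochrome A into the nucleus, had the night-high pattern. Its values were 8.70, 8.07 and 8.96 at ZT0, 5.33, 4.83 and 4.72 at ZT6, 4.95, 5.81 and 5.72 at ZT12, and 7.12, 7.08 and 8.07 at ZT18. The ZT0 and ZT18 arrays all lay above the light arrays, a separation whose share over all probe sets is not given here. FHL fell by 3.62 from ZT0 to ZT6 (SE 0.32, limma adjusted p = 1.28e-06) and rose by 1.93 from ZT12 to ZT18 (SE 0.32, adjusted p = 0.000317). Its further rise of 1.16 to ZT0 passed (limma adjusted p = 0.0134), but not with the 3' minus 5' covariate (adjusted p = 0.309), with no filter on dim probe sets (adjusted p = 0.0546) or without ZT18 replicate 2 (adjusted p = 0.0543).

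**Figure D4:**
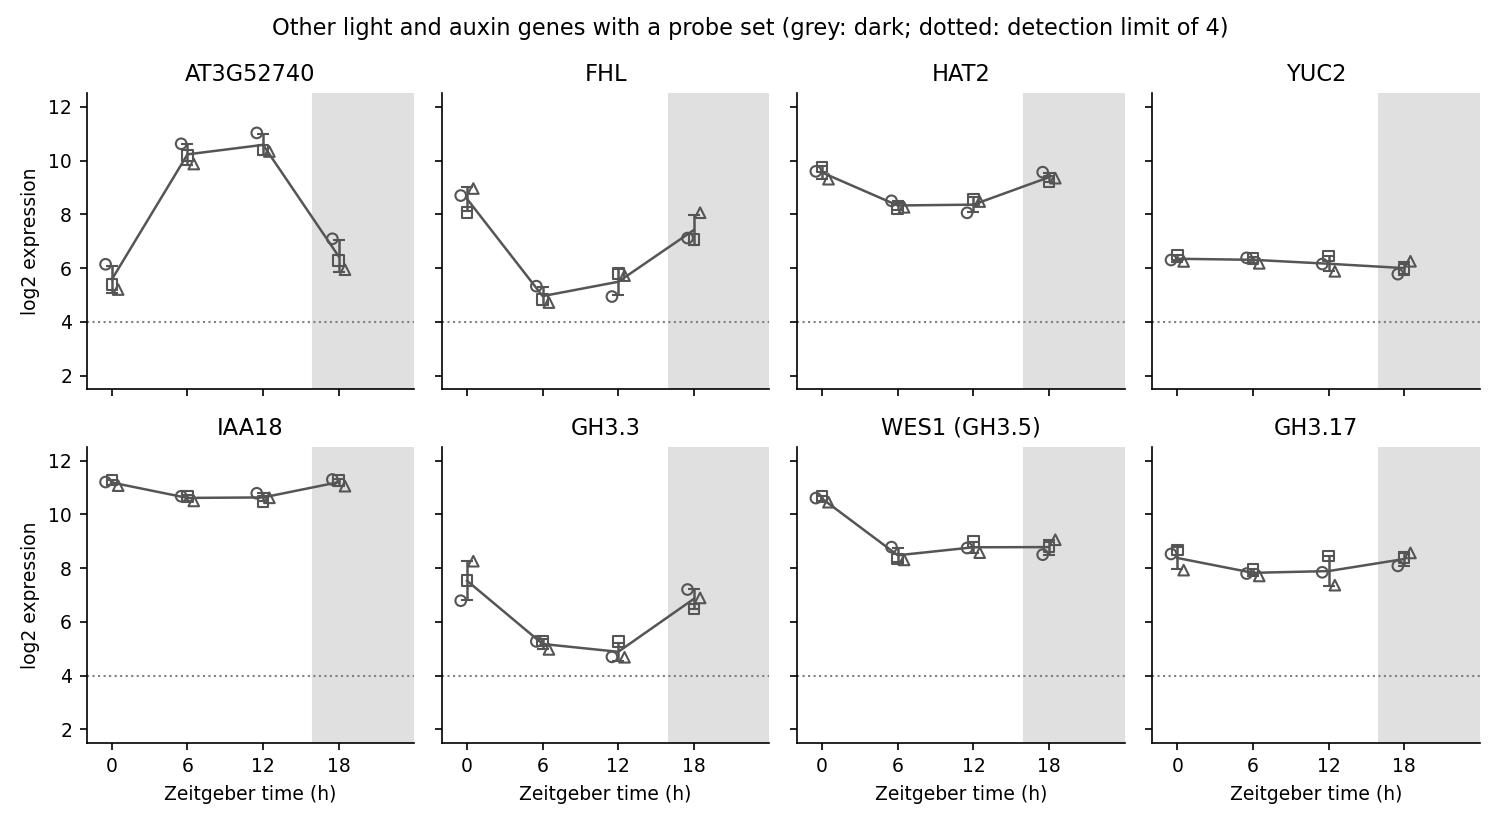
Log2 expression (y axis) against zeitgeber time in hours (x axis) for the 8 other light and auxin genes that could be tested. Symbols are single arrays by replicate number, lines join means with SD bars (n = 3), grey marks the dark and the dotted line is the detection limit of 4. AT3G52740 is high in the light, FHL, HAT2, IAA18 and GH3.3 are lower in the light than at ZT18 and ZT0, and WES1 is high at ZT0.

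Of the shade and elongation genes, HAT2 and YUC2 could be tested beside IAA29. HAT2, a homeodomain-leucine zipper factor, had values of 9.60, 9.76 and 9.31 at ZT0, 8.51, 8.23 and 8.26 at ZT6, 8.06, 8.55 and 8.48 at ZT12, and 9.57, 9.23 and 9.35 at ZT18. It fell by 1.22 from ZT0 to ZT6 (SE 0.16, limma adjusted p = 3.66e-05) and rose by 1.02 from ZT12 to ZT18 (SE 0.16, limma adjusted p = 0.000227). YUC2, an auxin biosynthesis enzyme gene, lay between 5.78 and 6.50 on all arrays and passed in none of the 6 comparisons (lowest limma adjusted p = 0.141). IAA18, the other detected Aux/IAA gene, fell by 0.57 from ZT0 to ZT6 (SE 0.11, limma adjusted p = 0.000603) and rose by 0.57 from ZT12 to ZT18 (adjusted p = 0.000827, and adjusted p = 0.0912 with the 3' minus 5' covariate). Its night and light arrays did not overlap, a separation whose share over all probe sets is not given here. The change of IAA18 was far smaller than the 4.15 of IAA29 between ZT0 and ZT6.

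GH3 genes encode enzymes that join amino acids to auxin and related hormones, and they are classic auxin-induced genes. GH3.3 was low in the light, with 5.18 ± 0.17 at ZT6 and 4.89 ± 0.34 at ZT12, and higher at ZT18 (6.86 ± 0.37) and ZT0 (7.53 ± 0.74). It fell by 2.35 from ZT0 to ZT6 (SE 0.32, limma adjusted p = 4.16e-05) and rose by 1.97 from ZT12 to ZT18 (SE 0.32, limma adjusted p = 0.000246). WES1 (GH3.5) was high at ZT0 alone, with 10.61, 10.69 and 10.45 there and 8.31 to 9.06 on the other 9 arrays. It rose by 1.80 from ZT18 to ZT0 (SE 0.17, limma adjusted p = 1.86e-05), also with the 3' minus 5' covariate (adjusted p = 0.00444). GH3.17 ranged from 7.37 to 8.68 and passed in none of the 6 comparisons (lowest limma adjusted p = 0.0846, ZT6 against ZT0). That call depended on single arrays: GH3.17 was lower at ZT6 than at ZT0 without ZT0 replicate 3 (adjusted p = 0.0227) and without ZT12 replicate 2 (adjusted p = 0.0439). Its ZT12 against ZT0 difference of -0.49 became -0.71 without ZT0 replicate 3 (adjusted p = 0.0353) and -0.77 without ZT12 replicate 2 (adjusted p = 0.0181). Without the latter, ZT18 against ZT12 also passed (0.73, adjusted p = 0.0253).

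From ZT12 to ZT18, 4 of the 8 genes (FHL, HAT2, IAA18 and GH3.3) rose and AT3G52740 fell, while 26.1% of all probe sets were called as higher. With the 3' minus 5' covariate 4 of these 5 calls remained. From ZT18 to ZT0, FHL and WES1 rose and 6 did not pass, while 18.6% of all probe sets were called as higher and 37.0% in either direction. With the 3' minus 5' covariate 1 of these 2 calls remained, and 1 gene was called without ZT18 replicate 2. Without ZT0 replicate 1 the count there was 4, with AT3G52740 and GH3.3 (adjusted p = 0.0168) added. From ZT6 to ZT12 none of the 8 passed by limma, with 0 at an unadjusted p under 0.05. With so few genes these counts do not set the lists apart from other genes. In a bulk sample, more RNA per cell and more cells that express a gene cannot be told apart.

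The genes whose profile over the 12 arrays was most like that of each gene were ranked by Pearson's r among 7565 other genes. AT3G44450 was most like AT1G11410 (r = 0.99), AT3G44970 (0.99), AT4G27700 (0.99), AT3G25410 (0.99) and AT3G48200 (0.99), and most opposed to AT1G36050 (-0.99), the MADS-box gene AGL18 (-0.99) and IAA29 (-0.99). Of these, AT3G44970 went from 2.54 ± 0.23 at ZT0 to 8.44 ± 0.03 at ZT6, and from 8.14 ± 0.22 at ZT12 to 4.40 ± 0.48 at ZT18. The ZT0 arrays of AT3G44970 were all under the detection limit. IAA29 was most like AT4G14385 (0.99), AT1G36050 (0.99), AT5G63820 (0.99), AT1G12080 (0.99) and cICDH (0.98), the gene for cytosolic isocitrate dehydrogenase. It was most opposed to AT3G44970 (-0.99), AT3G10840 (-0.99) and AT3G44450 (-0.99).

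For HYH the coefficients were lower. Its nearest genes were AT2G04570 (0.96), AT4G27680 (0.95), AT4G27840 (0.94), AT3G20820 (0.94) and AT2G01970 (0.93), and the most opposed were AT3G07180 (-0.97), ALN (-0.96) and AT4G19370 (-0.96). AT2G04570 was 8.64 ± 0.19, 8.83 ± 0.15 and 8.82 ± 0.12 at ZT0, ZT6 and ZT12 and 6.50 ± 0.20 at ZT18, a low value at the same time as HYH. ALN, the gene for allantoinase of purine breakdown, was 7.52 ± 0.17 at ZT18 and 5.16 to 5.49 in the means of the other times. HYH and AT2G04570 both varied mainly between ZT18 and the other times, so this coefficient says little beyond a low value at the same time.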

How the data were processed

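The authors deposited 1 table of log2 expression values, 1 value per probe set and array, with no pooling of replicates. The submitters' processing notes name R 3.1, GCRMA and affy 1.42.3 with no role or order, and other settings are not given in the sources used here. The table holds 22810 probe sets. Leaving out 64 controls, the 14016 that reached 4 on at least 3 arrays were tested. Outside the controls, the platform table gives 13513 probe sets a single gene and 503 several genes, and 8730 are not in it. Symbols were updated through the RefSeq table of TAIR10.1, and the probe set with the highest mean stood for a gene.

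Times were compared by limma 3.58.1 under R 4.3.3 (lmFit with a mean per time on all 12 arrays, eBayes with a mean-variance trend, two-sided), with Benjamini-Hochberg adjustment over all tested probe sets in each of the 6 comparisons and a threshold of 0.05. Intervals of a difference are limma's and are not adjusted. A fold against a time whose arrays were all below 4 is a lower bound, computed with these arrays at 4. The number of arrays limits the precision. The fitting code was tested on simulated data. Named genes were the 3 members, all listed genes with a probe set, and per member the 5 genes with the highest and the 3 with the lowest r. The members and lists were chosen with earlier results of these data known. Deviations of same-numbered arrays from their time means correlated over 0.1 in all 3 pairs for ZT0 against ZT18 (0.18 to 0.32). The same held for ZT12 against ZT0 (0.19 to 0.40). In these comparisons the numbers appeared to pair the arrays, from the data and not from the labels. In the other 4 comparisons at least 1 pair was below 0.1. The main fit had no replicate block in any comparison, so its p-values ignore this pairing. The block was fitted only as an alternative. No sequence of a gene, promoter or protein was used here.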

Additional observations from a re-analysis of the deposited data

How the results depend on the processing

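Without a filter, with median centring, without a variance trend or with a robust trend, all differences of AT3G44450, HYH and IAA29 kept their side of the threshold, and all but that of HYH between ZT12 and ZT0 (-0.01, and 0.03 with median centring) their direction. In the paired comparisons, ZT0 against ZT18 and ZT12 against ZT0, the replicate block changed no call of a named member or list gene other than AT3G52740. In the others, where the arrays share only a number and 0 to 4 of 6 arrays correlated best with their own, it raised the calls between ZT12 and ZT6 from 297 to 815 and called GH3.17 between ZT6 and ZT0 (adjusted p = 0.0443). That count was 145 with no filter, 752 with the 6 arrays of ZT6 and ZT12 fitted alone, and from 27 to 466 on leaving out 1 array: 165, 27 and 41 without ZT6 replicates 1, 2 and 3, 102, 107 and 125 without ZT12 replicates 1, 2 and 3, 466 without ZT18 replicate 1 and 451 without ZT0 replicate 3. The fit to 6 arrays also called AT3G44450 between ZT12 and ZT6 (-0.81) and GH3.17 between ZT6 and ZT0 and between ZT18 and ZT6.

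The 3' minus 5' covariate gave 170 calls for ZT12 against ZT6, 2307 of 7078 for ZT18 against ZT12, 1587 of 5187 for ZT0 against ZT18 and 3031 of 6478 for ZT18 against ZT6. The difference of IAA29 between ZT18 and ZT12 became 2.96 and that of HYH between ZT0 and ZT18 became 4.24. ZT0 against ZT18 was no longer called for AT3G44450 (-1.03) and IAA29 (1.00). Since this signal and ZT18 move together, they cannot be fully told apart.

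With the time taken from the harvest characteristic, limma called 0 probe sets in each comparison (16 to 279 at an unadjusted p under 0.05), against 297 to 7851 under the titles. AT3G44450 then gave 0.21 (ZT6 against ZT0), -0.25 (ZT18 against ZT12), -1.19 (ZT0 against ZT18), 1.44 (ZT12 against ZT0) and 0.97 (ZT18 against ZT6). HYH gave 1.59 (ZT18 against ZT12), -0.99 (ZT0 against ZT18) and 1.21 (ZT18 against ZT6). IAA29 gave 0.13 (ZT6 against ZT0), 0.17 (ZT18 against ZT12), 0.79 (ZT0 against ZT18), -0.95 (ZT12 against ZT0) and -0.92 (ZT18 against ZT6). With a detection limit of 5, the lower bounds of AT3G44450 were 16.9-fold for ZT6 and 9.62-fold for ZT12 over ZT0, and the bound for ZT18 over ZT0 was lost. The promoter windows planned as an alternative were not run.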

Other observations

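The neighbours of the 3 genes in the RefSeq table shared none of their profiles as far as they could be read. AT3G44440, next to AT3G44450 on chromosome 3, was 6.03 ± 0.08 at ZT0 and 5.13 ± 0.14, 5.17 ± 0.12 and 5.07 ± 0.26 at ZT6, ZT12 and ZT18. It was thus highest at the time when AT3G44450 was lowest, and it fell by 0.91 from ZT0 to ZT6 (SE 0.16, limma adjusted p = 0.000441). IAA31, next to HYH on the same chromosome, was at the floor of 2.06 on all 12 arrays. The other 4 neighbours had no probe set naming them alone.

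The shape of IAA29, with ZT0 above ZT18 and ZT18 above both light times and no arrays overlapping, was held by 611 of 14016 probe sets (4.36%). The order of AT3G44450, ZT6 above ZT12 above ZT18 above ZT0 with no overlap, was held by 163 (1.16%). By the span of its means IAA29 ranked 13th within the former set. These counts describe the values that picked the genes.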
